A study of Mus musculus with 6 samples.

Results

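The genes described here are 9 transcription factors of the anterior epiblast and the neural plate: Otx2, Hesx1, Six3, Foxd3, Foxd4, Zic2, Zic5, Pax3 and Olig2. They are 9 of the 55487 genes in the count table and were found there by symbol. They were chosen by name with measured values in view, several for being much higher in Ts1Cje, so their difference between the genotypes is given as a description and carries no test. Cells grown from mouse embryonic stem cells were measured by poly(A) RNA-seq after 4 days of differentiation toward primitive macrophage progenitors, the earliest yolk-sac type cells that give rise to macrophages. Of the 6 libraries, 3 came from cells established from Ts1Cje mice and 3 from wild-type cells. Ts1Cje mice model Down syndrome: a distal stretch of chromosome 16 is present in 3 copies, the additional copy being joined to chromosome 12. All cells had been kept with LIF and serum replacement, and both genotypes received VEGF, activin A, BMP-4 and FGF2 during the differentiation. The labels number the libraries as lots and do not say whether lots are separate cultures or how many stem cell lines were used, so genotype and cell line cannot be told apart and p-values measure only the spread between these libraries.

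In the early embryo the epiblast gives rise to all germ layers, and its anterior part becomes the neural plate. Signals from the anterior visceral endoderm and the underlying mesendoderm hold WNT and NODAL activity low at that end, which allows the forebrain programme to be expressed, while WNT, FGF and retinoic acid specify caudal fates. OTX2 acts early in this process: it is needed as pluripotent cells leave the naive state and, later, for forebrain and midbrain. HESX1 and SIX3 are homeodomain repressors of the anterior neural plate that keep WNT output low there, and both work through Groucho corepressors. FOXD3 is a forkhead factor of the epiblast and of the neural crest, and FOXD4 is a forkhead factor of the newly formed neuroectoderm. ZIC2 and ZIC5 are zinc-finger factors of epiblast and dorsal neural tube, PAX3 marks the neural plate border, dorsal neural tube and crest, and OLIG2 is a bHLH factor of motor neuron and oligodendrocyte progenitors.

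The DNA just upstream of 4 of these genes is shown. Each of them had, beside it on the chromosome, another transcript that was also higher in Ts1Cje. Zic2 and Zic5 had such a transcript too and are not shown. The sequences come from RefSeq promoter windows on GRCm38.p6 and run 5′ to 3′ on the strand of the gene. They end at the annotated start, or before the first base that the GENCODE annotation gives as exon. Capitals mark matches, on either strand, to the OTX-type homeodomain motif TAATCC, read as GGATTA on the other strand, to the homeodomain core TAATTA, or to the CCAAT box, read as ATTGG on the other strand.
Otx2 (chr14:48667645-48667894, minus strand): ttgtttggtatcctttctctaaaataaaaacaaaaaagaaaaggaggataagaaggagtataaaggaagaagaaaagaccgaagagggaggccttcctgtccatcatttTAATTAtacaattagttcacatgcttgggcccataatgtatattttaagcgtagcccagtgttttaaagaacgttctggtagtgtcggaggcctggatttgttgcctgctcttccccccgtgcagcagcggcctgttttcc
Six3 (chr17:85620584-85620833, plus strand): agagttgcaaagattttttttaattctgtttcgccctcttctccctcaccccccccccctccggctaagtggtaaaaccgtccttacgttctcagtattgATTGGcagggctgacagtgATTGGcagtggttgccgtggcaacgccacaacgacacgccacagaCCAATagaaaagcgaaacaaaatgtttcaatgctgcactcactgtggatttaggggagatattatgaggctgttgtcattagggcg
Foxd3 (chr4:99656049-99656298, plus strand): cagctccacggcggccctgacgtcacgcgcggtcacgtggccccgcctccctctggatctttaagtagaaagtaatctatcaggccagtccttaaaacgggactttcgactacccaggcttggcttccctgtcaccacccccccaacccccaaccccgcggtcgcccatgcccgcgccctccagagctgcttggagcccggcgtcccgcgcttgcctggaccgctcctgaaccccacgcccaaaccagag
Olig2 (chr16:91225300-91225456, plus strand): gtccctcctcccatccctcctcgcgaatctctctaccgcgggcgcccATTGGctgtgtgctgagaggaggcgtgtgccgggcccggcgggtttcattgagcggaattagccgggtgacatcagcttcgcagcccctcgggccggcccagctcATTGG
The Otx2 and Six3 starts lie inside longer gene models of the deposited annotation.

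The Six3 stretch held 3 CCAAT boxes, at positions -150, -131 and -86 from the start, and the Olig2 stretch held 2. Over 32841 RefSeq windows of 300 bases (250 before and 50 after a start), 11.7% held at least 2 CCAAT boxes and 3.37% at least 3. The Otx2 stretch held 1 TAATTA, a motif found in 5.29% of windows, and TAATCC was found in 7.06%. Another of the 4 Otx2 windows, at the start 48665109, held 3 TAATTA matches, which 0.0487% of windows did, and 1 GGATTA. The Foxd3 stretch held none of the marked motifs and 21 CG dinucleotides. In the full windows Foxd3 and Olig2 each had 25 CG dinucleotides, against 4 in Hesx1 and a median of 7 over all windows. Windows were matched for 7 of the 9 genes. No match to the SOX-type motif ACAAAG (18.7% of windows) or the ZIC-type motif CAGCAGG (10.5%) was found in any of their 10 windows. The E-box CANNTG was found in 72.3% of windows, and in Foxd3, Foxd4, Hesx1, Zic5 and 3 of the 4 Otx2 windows. These letter matches describe the windows and were not read as binding sites.

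Total counts were 18459721, 18587516 and 18513795 in wild-type replicates 1 to 3 and 18320582, 16577065 and 19010856 in Ts1Cje, so 3 counts correspond to 0.157 to 0.179 counts per 1000000 (CPM). Wild-type libraries correlated with each other at 0.980 to 0.989, Ts1Cje libraries at 0.986 to 0.987, and pairs across genotypes at 0.912 to 0.943 (Pearson's r of log2 CPM across genes, which are not independent). Wild-type replicate 1 differed from replicates 2 and 3 in pluripotent stem cell markers, whose summed level was 185 CPM in the former and 67.1 and 56.5 CPM in the latter, against 457 to 726 in Ts1Cje. Of the 9 macrophage markers, 2 were abundant enough to test and Ptprc and Cx3cr1 were at 0 counts in every library, while Csf1r, the macrophage growth factor receptor gene, had 14.3 ± 1.47 and 18.1 ± 2.12 CPM. In these bulk libraries, more cells of a type and more RNA per cell cannot be told apart.

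Of the 9 genes, 8 were higher and 1, Pax3, was lower in every Ts1Cje library than in every wild-type library. Over the 17315 tested genes, every Ts1Cje library lay above every wild-type library for 28.8% and below for 26.4%. By edgeR's quasi-likelihood test with Benjamini-Hochberg adjustment at 0.05, 23.3% of tested genes were called higher and 20.5% lower in Ts1Cje. All 9 genes were among the tested, 8 called higher and 1 lower, and since they were chosen on this contrast, nothing is read from these counts. Hesx1, Six3, Foxd3 and Foxd4 passed the filter on low counts mainly or wholly through Ts1Cje and Pax3 through wild-type, which fixes that they differ.

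**Figure D1:**
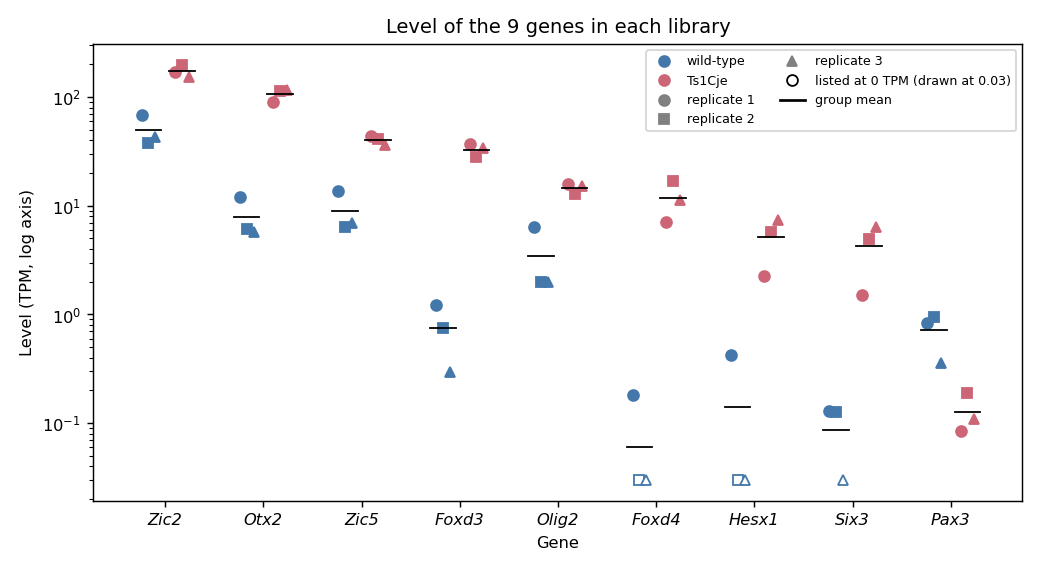
Level of each gene in each library, in transcripts per 1000000 (TPM, log axis), with genes in order of their Ts1Cje mean. Points are libraries, black lines are group means, and open symbols are libraries listed at 0. Ts1Cje libraries lie above wild-type for 8 genes and below for Pax3.

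Otx2 (ENSMUSG00000021848, chr14:48657677-48673819, minus strand, mm10 as for all gene positions below) had 15.4, 8.06 and 7.67 CPM in wild-type replicates 1, 2 and 3 and 119, 148 and 151 CPM in Ts1Cje. The Ts1Cje libraries lay close together and far above wild-type, of which replicate 1 was the highest. The means were 10.4 ± 4.33 and 139 ± 17.3 CPM (SD, n = 3, as for all values with ± unless marked SE), a log2 fold change of 3.75 ± 0.29 (SE), or 13.4-fold.

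Hesx1 (ENSMUSG00000040726, chr14:26994416-27002329, plus strand), which lies on the same chromosome, was nearly absent from wild-type: 3 counts in replicate 1 and 0 in replicates 2 and 3, against 16, 37 and 54 in Ts1Cje. The summed CPM was 36.4 times higher in Ts1Cje (95% exact binomial interval 12.1 to 179, counting error only). Without wild-type replicate 1 it was at least 24.2-fold higher, against a floor of 3 counts over the other wild-type libraries.

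Six3 (ENSMUSG00000038805, chr17:85613608-85629302, plus strand) had 4, 4 and 0 counts in wild-type and 47, 137 and 205 in Ts1Cje, or 2.58, 8.16 and 10.8 CPM in the latter. Every Ts1Cje library was above wild-type, but they differed among themselves by 4.18-fold, the widest span of the 9 genes. The means were 0.144 ± 0.125 and 7.17 ± 4.18 CPM, with a log2 fold change of 5.56 ± 0.80 (SE). Hesx1 showed the same order of the Ts1Cje libraries, with replicate 1 lowest, and a span of 3.23-fold.

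Foxd3 (ENSMUSG00000067261, chr4:99656299-99658622, plus strand) had 0.866, 0.541 and 0.219 CPM in wild-type and 27.0, 19.8 and 24.3 CPM in Ts1Cje. The means were 0.542 ± 0.323 and 23.7 ± 3.60 CPM, with a log2 fold change of 5.43 ± 0.31 (SE), or 43.1-fold. Foxd4 (ENSMUSG00000051490, chr19:24899236-24901197, minus strand) was likewise close to absent from wild-type, with 2, 0 and 0 counts against 80, 169 and 131 in Ts1Cje. Its summed CPM was 194 times higher in Ts1Cje (95% exact binomial interval 53.3 to 1607, counting error only), and at least 86.0-fold higher without wild-type replicate 1, against the same kind of floor. Both forkhead genes were thus near the limit of detection in wild-type and well above it in Ts1Cje, Foxd3 with 333 to 492 counts per library.

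Zic2 (ENSMUSG00000061524, chr14:122475435-122479852, plus strand) had the highest level per length (TPM, below) of the 9 genes in both genotypes. It had 60.4, 33.8 and 39.7 CPM in wild-type and 153, 174 and 136 CPM in Ts1Cje, with a log2 fold change of 1.79 ± 0.23 (SE). Zic5 (ENSMUSG00000041703, chr14:122456795-122465677, minus strand), its divergently transcribed neighbour, had 20.3, 9.63 and 10.7 CPM in wild-type and 67.6, 61.7 and 55.4 CPM in Ts1Cje, with a log2 fold change of 2.18 ± 0.28 (SE). The linked genes thus differed by 3.45-fold and 4.53-fold, the former being the smallest difference among the 8 higher genes, and wild-type replicate 1 was the highest wild-type library for both.

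Pax3 (ENSMUSG00000004872, chr1:78101267-78197134, minus strand) went the other way, with 29, 34 and 13 counts in wild-type and 3, 6 and 4 in Ts1Cje. The highest Ts1Cje library, at 0.358 CPM, was below the lowest wild-type library, at 0.713 CPM. The means were 1.37 ± 0.589 and 0.244 ± 0.101 CPM, with a log2 fold change of -2.48 ± 0.53 (SE), and the gene was scarce in both genotypes.

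Olig2 (ENSMUSG00000039830, chr16:91225457-91228677, plus strand) is the only one of the 9 that lies in the triplicated part of chromosome 16. It had 4.92, 1.57 and 1.59 CPM in wild-type and 12.5, 9.83 and 11.9 CPM in Ts1Cje. The means were 2.69 ± 1.93 and 11.4 ± 1.42 CPM. The wild-type spread came from replicate 1, which had 3.12 times the mean of replicates 2 and 3. The log2 fold change was 2.08 ± 0.42 (SE) with all libraries and 2.85 without wild-type replicate 1. The dosage of 3 copies against 2 corresponds to 0.58 on this scale, and the Olig2 value lay above it with and without that library. Among the 76 tested genes of the segment (chr16:90225680-97962622), the median log2 fold change was 0.48, with quartiles of 0.20 and 0.82, and Olig2 ranked 6 from the top.

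On a scale that takes length into account (TPM), the order in Ts1Cje was Zic2 (173 ± 23.4), Otx2 (107 ± 14.2), Zic5 (40.6 ± 3.87), Foxd3 (32.9 ± 4.60), Olig2 (14.6 ± 1.64), Foxd4 (11.7 ± 4.85), Hesx1 (5.11 ± 2.60), Six3 (4.26 ± 2.49) and Pax3 (0.128 ± 0.0545). Neighbours in this order whose libraries overlapped were Zic5 and Foxd3, Olig2 and Foxd4, Foxd4 and Hesx1, and Hesx1 and Six3. In wild-type the order began with Zic2 (50.0 ± 16.6), Zic5 (8.97 ± 4.08), Otx2 (7.94 ± 3.49) and Olig2 (3.45 ± 2.54), and Foxd3 (0.756 ± 0.464) and Pax3 (0.717 ± 0.315) followed. Only Zic2 from Zic5 and Olig2 from Foxd3 were separated without overlap there. The levels of Otx2 and Zic5 thus overlapped in wild-type, while in Ts1Cje every library had more Otx2 than Zic5.

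**Figure D2:**
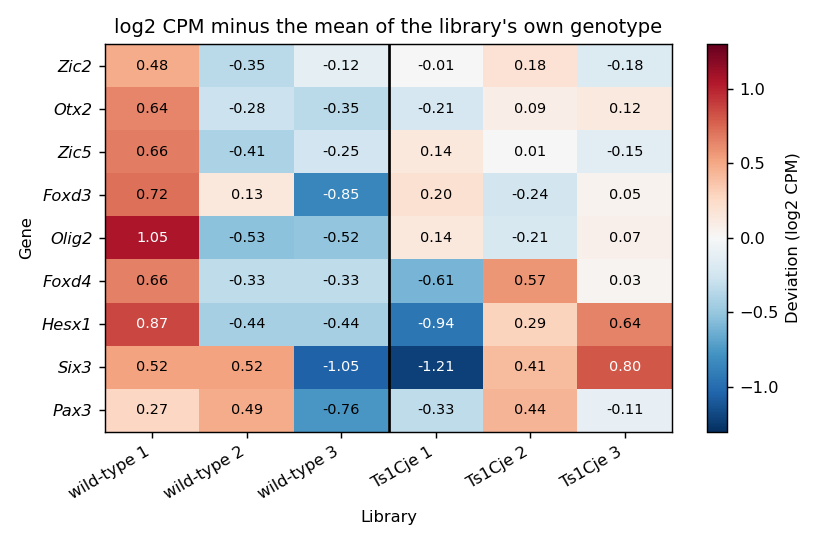
log2 CPM of each gene in each library minus the mean of that library's own genotype (colour and printed value). Wild-type replicate 1 is above its group mean for all 9 genes, by 1.05 for Olig2, and Ts1Cje replicate 1 is low for Six3 (-1.21) and Hesx1 (-0.94).

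Within wild-type, replicate 1 had the highest level for 7 of the 9 genes, Six3 being tied with replicate 2 at 4 counts and Pax3 highest in replicate 2. It was the highest wild-type library for 38.4% of all tested genes and for 48.4% of the genes called higher in Ts1Cje. The ratio of replicate 1 to the mean of the other wild-type libraries was 1.64 for Zic2, 1.95 for Otx2, 2.00 for Zic5 and 2.28 for Foxd3. The same library had the highest summed pluripotent stem cell markers of wild-type, given above, and the highest neuron and neural progenitor markers, at 121 CPM against 62.4 and 64.6. Its primitive streak markers, at 981 CPM against 483 in each of the others, and its endoderm, fibroblast and macrophage markers were also the highest of wild-type, and its endothelium and blood markers the lowest, at 641 CPM against 680 and 747. Their part in the results for the 9 genes was not tested. Within Ts1Cje, Foxd4 spanned 2.30-fold, while Otx2, Foxd3, Zic2, Zic5 and Olig2 each spanned 1.22- to 1.36-fold.

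Transcripts beside or opposite the 9 genes were not among the 9 chosen genes, and were taken as the nearest tested gene on either side. Six3os1, a noncoding transcript of the opposite strand that overlaps Six3 over 4791 bases, had 2, 7 and 2 counts in wild-type and 37, 99 and 148 in Ts1Cje, the same order of Ts1Cje libraries as Six3. Otx2os1, a lincRNA that overlaps Otx2 over 5112 bases on the opposite strand, had 4 summed counts in wild-type and 42 in Ts1Cje. Both transcripts passed the filter on low counts through Ts1Cje, which fixes that they differ, so their log2 fold changes of 4.67 ± 0.66 and 3.30 ± 0.72 (SE) are given as a description. The counting strand is not given in the sources used here, so reads in these overlaps cannot be assigned to one strand with certainty.

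Gm12688, a lincRNA whose start lies 1.32 kb from that of Foxd3 on the opposite strand, had 0.235 ± 0.136 CPM in wild-type and 3.70 ± 2.16 CPM in Ts1Cje (log2 fold change 3.94 ± 0.57 SE), and it too passed the filter through Ts1Cje and is only described. It does not overlap Foxd3 and was highest in Ts1Cje replicate 1, with 112 counts against 34 and 56, as Foxd3 was. 2610035F20Rik, a noncoding transcript between Zic2 and Zic5 that starts 0.236 kb from Zic2, rose from 4.96 ± 2.13 to 18.3 ± 3.57 CPM (log2 fold change 1.88 ± 0.28 SE, edgeR adjusted p = 0.000732). Olig1, the bHLH relative 44.3 kb from Olig2 and also triplicated, had 14.9, 5.20 and 3.62 CPM in wild-type and 55.2, 39.4 and 41.7 CPM in Ts1Cje. Its log2 fold change was 2.52 ± 0.54 (SE, edgeR adjusted p = 0.0141), a call lost without Ts1Cje replicate 1 or without the filter on low counts (adjusted p = 0.0530 and 0.0549).

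**Figure D3:**
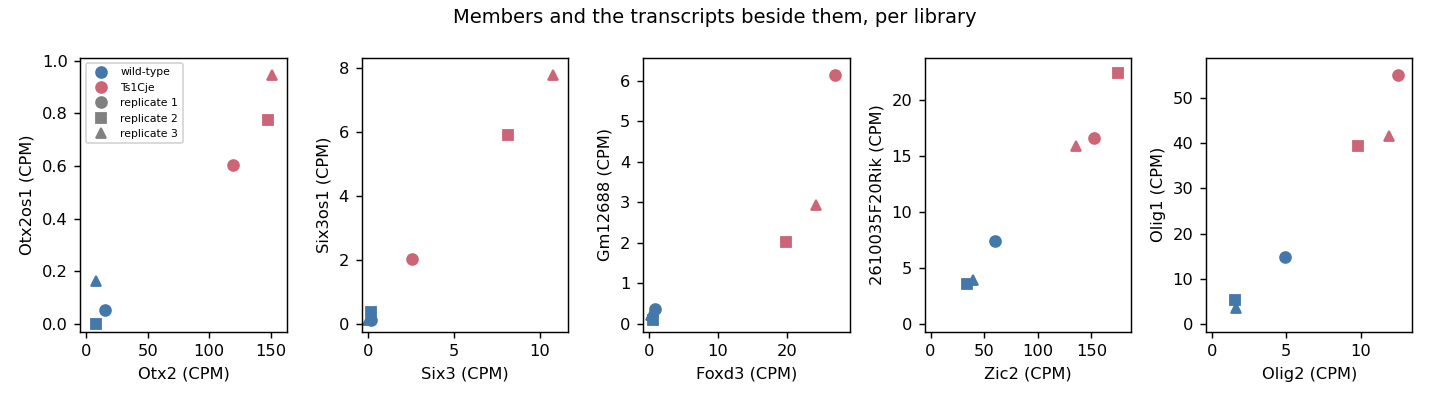
CPM of 5 genes (horizontal axes) and of a transcript beside each (vertical axes) in the 6 libraries. In each panel all Ts1Cje libraries lie above and to the right of all wild-type libraries, and Six3 and Six3os1 put the Ts1Cje libraries in the same order. All 5 transcripts drawn were called higher in Ts1Cje. Nearest tested genes that did not rise are not drawn, so the panels do not show how often neighbours rose.

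Genes within 1 Mb on the same chromosomes moved in both directions. Of the 77 tested genes that start within 1 Mb of the 8 genes outside the triplicated segment, 20 rose and 12 fell, or 26.0% and 15.6%, with a median log2 fold change of 0.07, beside 23.3% and 20.5% and a median of -0.01 over all tested genes. Otx2os1, Six3os1, Gm12688 and 2610035F20Rik, described above, are among the 77 and among the 20 counted as rising. Within 1 Mb of Olig2, Olig1 included, 23 of 34 rose and 3 fell, or 67.6% and 8.82%, with a median of 0.51. Il17rd, an inhibitor of FGF signalling 44.5 kb from Hesx1, fell from 311 ± 20.0 to 187 ± 21.5 CPM (log2 fold change -0.73 ± 0.09 SE, edgeR adjusted p = 0.000140). Six2, a relative of Six3 74.7 kb away that was picked out after its values were seen, fell by 0.94 on the log2 scale (SE 0.23, edgeR adjusted p = 0.00856). Beside Pax3, Sgpp2 rose (1.80 ± 0.39 SE, edgeR adjusted p = 0.00413) and the ephrin receptor gene Epha4, 682 kb away, fell (-0.87 ± 0.18 SE, edgeR adjusted p = 0.00757). Sgpp2, with 32 summed counts in wild-type and 109 in Ts1Cje, passed the filter on low counts only through Ts1Cje. This bears on its call and on the count of neighbours that rose. Clybl, 284 kb from Zic5, rose by 0.64 on the log2 scale (SE 0.13, edgeR adjusted p = 0.00253). The other nearest tested genes, Gm48909 (Otx2), Appl1 (Hesx1), Camkmt (Six3), Alg6 (Foxd3), Cbwd1 and Gm10053 (Foxd4), Pcca (Zic2) and H3f3a-ps2 (Olig2), had log2 fold changes between -0.24 and 0.48 and did not pass the test, with edgeR adjusted p-values from 0.0540 to 0.968. Appl1 passed, as lower, in 5 alternatives (adjusted p from 0.0131 to 0.0491), a replicate block and the fit without the filter on low counts among them, and Camkmt passed, as higher, without Ts1Cje replicate 1 (0.0486).

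**Figure D4:**
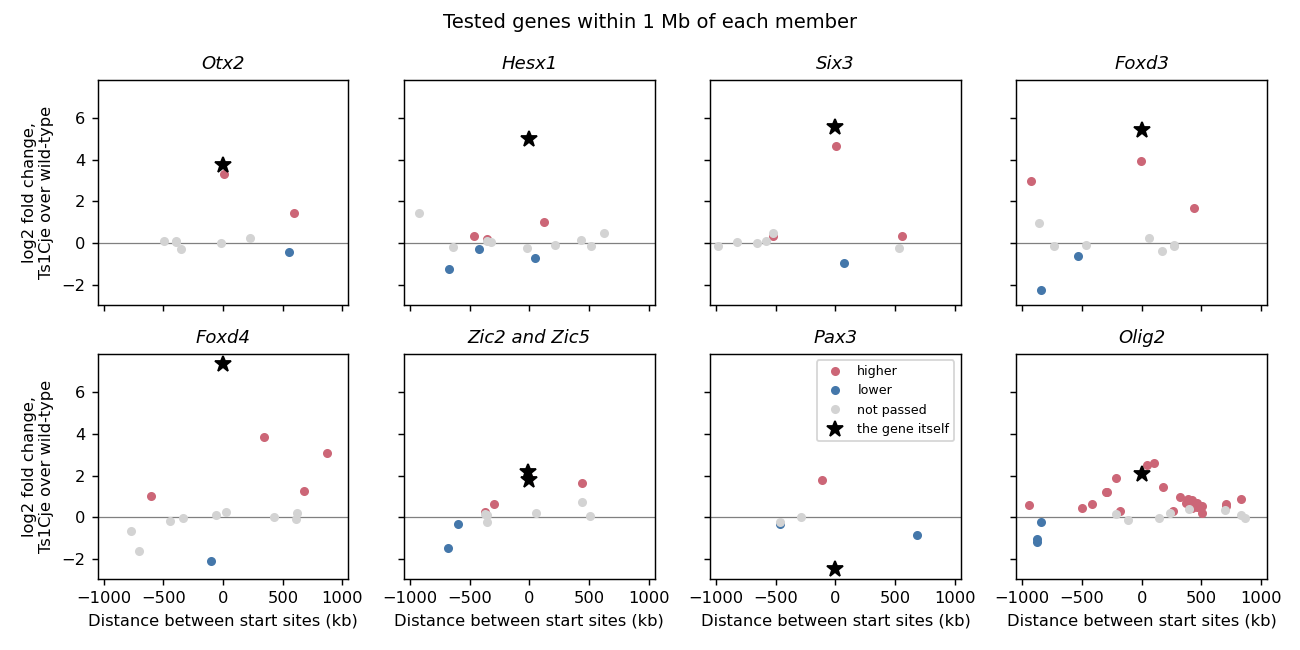
log2 fold change of tested genes against the distance of their start from that of the gene named above each panel (kb). Stars are the 9 genes, with Hesx1 and Foxd4 at fitted values that rest on at most 3 wild-type counts, and the points nearest to the stars of Otx2, Six3 and Foxd3 are Otx2os1, Six3os1 and Gm12688.

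Other factors of the anterior neural plate and forebrain were in part higher in Ts1Cje. Of 21 listed genes besides the 9, 9 could be tested: 4 rose, 1 fell and 4 did not pass. These are 44.4% and 11.1%, beside 23.3% and 20.5% of all tested genes, and the median log2 fold change was 1.17. Sox21 rose from 1.99 ± 0.660 to 18.9 ± 4.32 CPM (3.24 ± 0.27 SE, edgeR adjusted p = 1.83e-05) and Sox3, a marker of neural progenitors and late epiblast, rose from 1.77 ± 0.957 to 13.5 ± 4.48 CPM (2.93 ± 0.38 SE, edgeR adjusted p = 0.000418). Sox2 (2.28 ± 0.26 SE, edgeR adjusted p = 0.000155) and Emx2 (1.17 ± 0.35 SE, edgeR adjusted p = 0.0215) were the others that rose. Lhx2, an eye field and forebrain factor, fell by 0.97 on the log2 scale (SE 0.32, edgeR adjusted p = 0.0320), a call lost when any library but wild-type replicate 1 was left out (adjusted p from 0.0625 to 0.106). Tcf7l1, a repressor of WNT targets, had a value of 0.24 ± 0.13 (SE) and missed the threshold (edgeR adjusted p = 0.164). It passed with a replicate block (0.0474), without the filter on low counts, and without wild-type replicate 1 (0.00104), a fit in which 7 of 10 tested genes of the list rose.

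Of the classical neural genes, Sox1 and Pax6 were scarce in both genotypes. Sox1 had 36 counts over the wild-type and 24 over the Ts1Cje libraries, and Pax6 had 6 in each genotype. Rax, an eye field gene, had 0 counts in wild-type and 3, 17 and 19 in Ts1Cje, at least 13.3-fold higher, with 3 counts over the wild-type group as the floor. None of these 3 genes passed the filter on low counts, and they were picked out after their values were seen. Of 13 tested neural progenitor and neuron genes (21 listed), 3 rose, 3 fell and 7 did not pass. These are 23.1% each way, close to the 23.3% and 20.5% of all tested genes, and the median log2 fold change was 0.42. Elavl3, a neuronal RNA-binding protein, rose from 0.344 ± 0.135 to 5.17 ± 3.08 CPM (3.88 ± 0.52 SE, edgeR adjusted p = 0.000284), and Dcx, a microtubule protein of young neurons, rose from 0.163 ± 0.0934 to 2.28 ± 1.31 CPM (3.75 ± 0.61 SE, edgeR adjusted p = 0.000776). Both were too scarce in wild-type to pass the filter on low counts there and were tested through Ts1Cje, which bears on their calls. The other gene that rose was Olig1, which is triplicated and was given above with the alternatives that lost its call. Fabp7 of radial glia (-1.98 ± 0.56 SE, edgeR adjusted p = 0.0184) and the adhesion genes Ncam1 (-1.03 ± 0.15 SE, edgeR adjusted p = 0.000469) and Cdh2 (-0.74 ± 0.21 SE, edgeR adjusted p = 0.0298) fell. Nes, the neural progenitor filament, had 71.8 ± 28.5 and 93.2 ± 17.1 CPM (edgeR adjusted p = 0.368), and passed as higher with a replicate block (0.0148) and without wild-type replicate 1 (0.00215). Leaving out a library also changes which genes of the list can be tested. Without wild-type replicate 1, 8 of 15 tested genes rose, and 1 fell of 16 without Ts1Cje replicate 1 and of 13 without Ts1Cje replicate 3, Ncam1 being the one of the 3 whose call held in every alternative run.

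Caudal neural plate genes fell more often than they rose. Of 15 tested genes of midbrain, hindbrain and caudal neural plate (20 listed), 9 fell, 1 rose and 5 did not pass, with a median log2 fold change of -2.69. The shares were 60% lower and 6.67% higher, beside 20.5% and 23.3% of all tested genes. Cdx4, a caudal homeobox gene, fell from 704 summed counts to 1 (edgeR adjusted p = 2.99e-06), and Cdx2 fell from 208 ± 44.5 to 5.21 ± 2.91 CPM (-5.33 ± 0.40 SE, edgeR adjusted p = 0.000277). Cdx4 was tested through wild-type, being too scarce in Ts1Cje to pass the filter on low counts there, which bears on its call. Gbx2, which opposes Otx2 at the midbrain-hindbrain boundary, fell from 17.1 ± 12.0 to 1.37 ± 0.723 CPM (-3.64 ± 0.67 SE, edgeR adjusted p = 0.00646). Fgf8 fell by 0.45 on the log2 scale (SE 0.10, edgeR adjusted p = 0.00427), and Sall4, a factor shared with pluripotent cells, was the 1 that rose (0.35 ± 0.11 SE, edgeR adjusted p = 0.0265), a call lost when either Ts1Cje replicate 2 or one of wild-type replicates 2 and 3 was left out (adjusted p from 0.0763 to 0.0823). Many of the genes that fell, such as Cdx2 and Hoxb1, are also expressed in posterior mesoderm.

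Genes of the neural plate border and neural crest, with which Pax3 and Foxd3 are both associated, gave 11 that fell and none that rose of 15 tested (20 listed), with a median log2 fold change of -2.32. The shares were 73.3% lower and 0% higher, beside 20.5% and 23.3% of all tested genes. Pax3 had the direction of this list and Foxd3 the opposite one. Snai2, a crest repressor of epithelial genes, fell from 4.92 ± 2.79 to 0.243 ± 0.125 CPM (-4.31 ± 0.64 SE, edgeR adjusted p = 0.000744), and Msx1, a border and mesoderm homeobox gene, fell from 183 ± 29.7 to 19.2 ± 6.46 CPM (-3.26 ± 0.27 SE, edgeR adjusted p = 0.000219). Snai2, Dlx3, Ednrb and Sox8, all of which fell, were tested through wild-type, being too scarce in Ts1Cje to pass the filter there. The same held for Cdx1 and Cdx4 of the caudal list. This bears on their calls and on the counts of genes that fell in both lists. Hand2 (-4.00 ± 0.56 SE, edgeR adjusted p = 0.00318) and Ets1 (-1.72 ± 0.12 SE, edgeR adjusted p = 4.6e-06), both also of mesoderm and vessels, fell. Beside these falls, the summed level of 9 endothelium and blood progenitor markers was 641 to 747 CPM in wild-type and 66.9 to 157 CPM in Ts1Cje, with 8 of them falling. Of 7 primitive streak markers, 3 fell and 0 were called higher. Their summed levels were 981, 483 and 483 CPM in wild-type replicates 1 to 3 and 351 to 562 CPM in Ts1Cje, so the genotypes overlapped. Eomes, 1 of the 7, went the other way in value without passing the test, as given below. The part of these markers in the fall of the border genes was not tested.

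**Figure D5:**
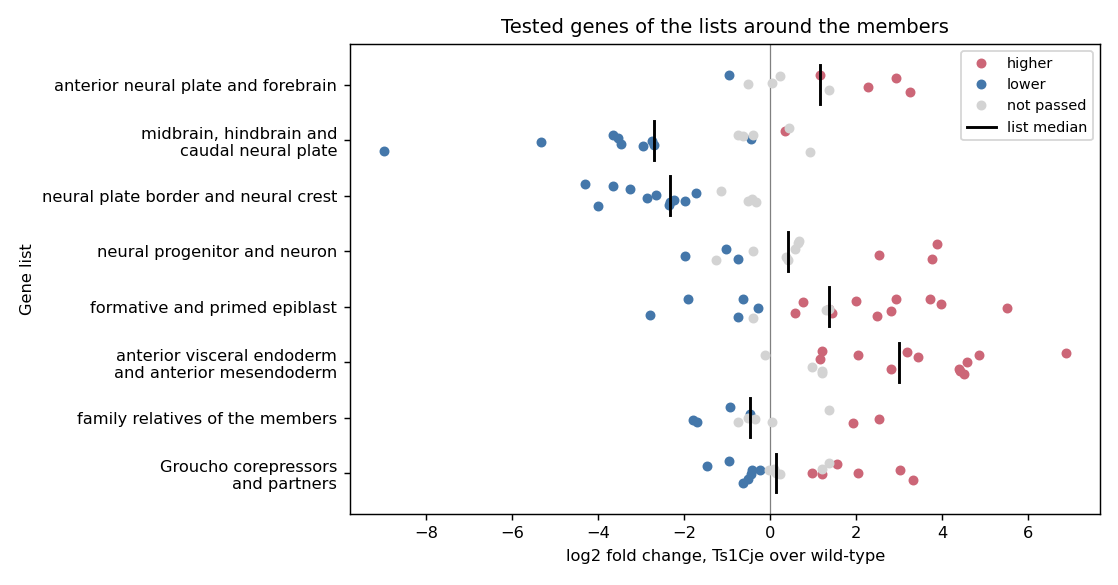
log2 fold change of each tested gene in 8 lists around the 9 genes, which are themselves left out. Points are genes, coloured by the edgeR call, and black bars are list medians, from -2.69 for caudal neural plate to 2.99 for anterior visceral endoderm and anterior mesendoderm.

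Formative and primed epiblast genes rose more often than they fell. All 19 listed genes were tested: 11 rose, 5 fell and 3 did not pass, with a median log2 fold change of 1.36. The shares were 57.9% higher and 26.3% lower, beside 23.3% and 20.5% of all tested genes. Without wild-type replicate 1, 13 rose, and 9 rose when any other library was left out or the filter on low counts was dropped. Fgf5, the classical marker of the primed epiblast, rose from 4.00 ± 3.25 to 183 ± 6.66 CPM (5.51 ± 0.49 SE, edgeR adjusted p = 0.000661), Pim2 rose by 3.96 ± 0.60 (SE, edgeR adjusted p = 0.00475), and the de novo DNA methyltransferase Dnmt3b rose from 251 ± 46.7 to 992 ± 230 CPM (1.98 ± 0.21 SE, edgeR adjusted p = 0.000529). Fgf15 (-2.80 ± 0.26 SE, edgeR adjusted p = 7.98e-05), Lef1 (-1.92 ± 0.29 SE, edgeR adjusted p = 0.00379) and Cdh2, given above, were among those that fell, and only 3 fell without wild-type replicate 2 or Ts1Cje replicate 3. The 9 pluripotent stem cell markers, 7 of which rose, had summed levels of 56.5 to 185 CPM in wild-type and 457 to 726 CPM in Ts1Cje. They include Pou5f1 and Nanog of the epiblast list and Sox2 of the anterior neural plate list, so they are not separate from those lists. The summed markers, Otx2, Foxd3 and Zic2 were all higher in Ts1Cje, and within wild-type all were highest in replicate 1. Within Ts1Cje the summed markers and Foxd3 were highest in replicate 1 and lowest in replicate 2. Otx2 was instead lowest in replicate 1, and Zic2 was highest in replicate 2. The part of the markers in the values of these genes was not tested.

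Genes of the tissues that signal to the anterior epiblast rose more often than they fell. Of 16 genes of anterior visceral endoderm and anterior mesendoderm, all tested, 12 rose, none fell and 4 did not pass, with a median log2 fold change of 2.99. The shares were 75% higher and 0% lower, beside 23.3% and 20.5% of all tested genes. Noto, with 3 summed counts in wild-type, and Lefty1, with 44, were among the 12. Both passed the filter on low counts only through Ts1Cje, which bears on their calls and on the count of genes that rose. Cer1, a secreted inhibitor of NODAL, BMP and WNT, rose from 1.05 ± 0.565 to 125 ± 47.7 CPM (6.88 ± 0.53 SE, edgeR adjusted p = 0.000273). The WNT receptor gene Fzd8 rose from 2.63 ± 0.741 to 75.4 ± 24.7 CPM (4.84 ± 0.35 SE, edgeR adjusted p = 9.8e-05). Lhx1 (1.20 ± 0.40 SE, edgeR adjusted p = 0.0616) and Eomes (1.20 ± 0.45 SE, edgeR adjusted p = 0.0864) missed the threshold. Lhx1 passed it in 6 of the alternatives run and Eomes in 5, DESeq2, limma-voom, limma-trend and leaving out wild-type replicate 1 among them (adjusted p from 0.00273 to 0.0473), and 14 of the list rose in each of those fits. All 10 definitive and visceral endoderm markers rose, with summed levels of 364 to 434 CPM in wild-type and 1021 to 1517 CPM in Ts1Cje. Sox17 and Foxa2 belong both to these markers and to the list above, so the markers are not separate from it. The part of the markers in the values of the list was not tested.

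Relatives from the same families moved in both directions. Of 25 listed relatives 11 were tested: 2 rose, 4 fell and 5 did not pass, with a median log2 fold change of -0.48. The shares were 18.2% higher and 36.4% lower, beside 23.3% and 20.5% of all tested genes. Olig1, given above, was among those that rose. Foxd1 (-1.80 ± 0.46 SE, edgeR adjusted p = 0.00939), Bhlhe22 (-1.71 ± 0.34 SE, edgeR adjusted p = 0.00275), Six4 (-0.48 ± 0.09 SE, edgeR adjusted p = 0.00175) and Six2 fell. Foxd1, with 51 summed counts in wild-type and 14 in Ts1Cje, passed the filter on low counts only through wild-type, which bears on its call. Otx1, the closest relative of Otx2, had 3.02 ± 2.04 and 3.11 ± 1.48 CPM. Zic1 and Zic4, a linked pair like Zic2 and Zic5, were not tested: wild-type held 11 and Ts1Cje 5 counts of Zic1, and 5 and 2 of Zic4. Foxd2, with 3 and 14 counts, was not tested either.

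Of 19 Groucho corepressors and partners of the 9 factors, 6 rose, 7 fell and 6 did not pass, with a median log2 fold change of 0.14. The shares were 31.6% higher and 36.8% lower, beside 23.3% and 20.5% of all tested genes. Tle2, a Groucho corepressor, rose from 0.815 ± 0.0911 to 8.19 ± 2.00 CPM (3.32 ± 0.27 SE, edgeR adjusted p = 1.3e-05), and Tle5, a short family member that lacks the WD repeats of the others, rose from 7.68 ± 0.443 to 62.2 ± 4.75 CPM (3.02 ± 0.11 SE, edgeR adjusted p = 4.1e-07). Tle3, another Groucho corepressor, fell by 0.43 on the log2 scale (SE 0.09, edgeR adjusted p = 0.00441), from 341 ± 30.6 to 253 ± 28.1 CPM. Gli3, which like the ZIC factors is a GLI-type zinc-finger protein, fell by 1.46 (SE 0.10, edgeR adjusted p = 7.17e-06). Ldb1, the cofactor of LIM homeodomain proteins, fell by 0.24 (SE 0.08, edgeR adjusted p = 0.0394), a call lost in 6 of the alternatives run (adjusted p from 0.0752 to 0.141).

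Across the 6 libraries, the genes whose log2 CPM followed each of the 9 most closely had Pearson's r between 0.994 and 0.9996, a likeness that includes the difference between the genotypes. They were Il1r1, Clic3 and Ermn for Otx2, Fam107b, Trdc and Fxyd3 for Hesx1, and Gm9910, Prkch and Gm10000 for Six3. For Foxd3 they were Zswim1, Gm48840 and F11r, and for Foxd4 Shb, Fam83h and Chga. For Zic2 they were Prss41, Gm4824 and Enc1, and for Zic5 Amt, Dnajb11 and Dctn2. For Pax3 they were Zfp142, Cnep1r1 and Mars2, and for Olig2 Arpc5, Sesn2 and Klrg2. Between 258 (Pax3) and 1840 (Foxd3) tested genes had an r above 0.95 with the gene, so each list is the top of a long row of like patterns.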

How the data were processed

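Poly(A) RNA-seq of 6 libraries, 3 Ts1Cje and 3 wild-type, was analysed from tables of the whole series. The values the authors deposited are unnormalized counts of reads for each Ensembl gene and, in another table, TPM for the same genes. Per the submitters' processing notes, the genome was mm10 and the tools featureCounts 1.6.3, HISAT2 2.1.0, Trimmomatic 0.38 and FastQC 0.11.7. Which strand was counted, how reads with several alignments were treated and the other settings were not given in the sources used here.

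Groups and lot numbers are those of the labels. Counts were filtered with filterByExpr (minimum count 10, total 15), scaled with TMM and compared with edgeR 4.0.16's quasi-likelihood test (robust, no covariate) in R 4.3.3, with Benjamini-Hochberg adjustment over 17315 genes at 0.05. CPM uses TMM scaling. TPM served for levels between genes and, as log2(TPM + 1) or log2(TPM + 0.1), for limma 3.58.1. DESeq2 1.42.0, limma-voom, other size factors, other filters, leaving out each library and a replicate block were alternatives. SEs are derived from the test's F and are approximate. Intervals and floors (3 counts) cover counting error only, since reads without molecular identifiers are not independent molecules. Every column of values matched 1 sample. The test was tried on simulated data.

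The 9 genes and the gene lists were chosen with earlier results of these data known. Named in each list are the 2 called genes with the largest rise, the 2 with the largest fall and the 2 with the highest mean CPM; for each of the 9 genes, the nearest tested gene on either side by start site and the 3 tested genes most alike in pattern. Other names, such as Gbx2, Sox2, Emx2, Otx1 and Six2, were picked out after their values were seen. Some genes that this rule names are not reported here. Motifs were searched in RefSeq promoter windows on GRCm38.p6.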

Additional observations from a re-analysis of the deposited data

How the results depend on the processing

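Since the 9 genes were chosen on this contrast, their calls in the alternatives are only described and nothing is read from them. They kept their direction, and their counts of 8 higher and 1 lower, in every alternative except a minimum mean log2 CPM of 1. That left 7 of them tested and 0 lower. Fitted log2 fold changes of the scarce genes depend on the pseudocount: with log2(TPM + 1), Hesx1 had 2.33, Six3 2.14, Foxd3 4.30, Foxd4 3.52 and Pax3 -0.59. No result changed sign. For the anterior neural plate list, the genes lower came to 0 with DESeq2, with no filter and with the minimum of 1, and the median to 0.029 with no filter. For the caudal neural plate list, the genes higher came to 0 with limma-trend at either pseudocount and to 4 with no filter, and the median to -2.46 with limma-voom, -1.19 with log2(TPM + 1), -2.30 with log2(TPM + 0.1) and -0.54 with no filter. The median of the border and crest list came to -1.60 with log2(TPM + 1), -2.10 with no filter and -2.49 with the minimum of 1. The neural progenitor list had 6 higher with no filter. The median of the anterior visceral endoderm list was 2.35 with log2(TPM + 1), and that of the family relatives -0.21 with log2(TPM + 1) and -0.15 with the minimum of 1. Neighbours within 0.5 Mb had 5 lower, and with no filter the neighbours' median was 0.35. A list without the filter holds more genes; the cause of the other shifts was not tested.

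Leaving out each library in turn gave 3 to 7 higher, 0 to 1 lower and a median of 0.64 to 1.86 for the anterior neural plate list, and 0 to 2 higher and a median of -2.80 to -2.15 for the caudal list. The border list's median ran from -2.47 to -2.15. The neural progenitor list had 3 to 8 higher, 1 to 3 lower and a median of 0.17 to 0.75. The epiblast list had 9 to 13 higher, 3 to 5 lower and a median of 1.07 to 1.92, the anterior visceral endoderm list a median of 2.69 to 3.14, and the relatives 1 to 3 higher and a median of -0.51 to -0.22. Without Ts1Cje replicate 1, Olig1 lost its call.

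Lot numbers are shared between the genotypes, but the labels do not say that lots pair the samples. Same-numbered libraries deviated together with correlations of 0.219, 0.0589 and 0.202, each library correlating best with its own number, which is a hint from the data and not from the design. With a replicate block the caudal list had 2 higher and the neural progenitor list 6 higher, Cdh2 lost its call (edgeR adjusted p = 0.0669), and Nes, Tcf7l1 and Appl1 gained one. With 16577065 to 19010856 counts per library, genes under about 10 counts per library, Hesx1, Six3 and Foxd4 in wild-type and Pax3 in Ts1Cje among them, are limited by counting.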
